A study of Homo sapiens with 9 samples.

Results

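Formaldehyde-assisted isolation of regulatory elements (FAIRE) recovers DNA that is poorly bound by nucleosomes, and FAIRE-seq peaks mark accessible chromatin. Of the 40703 regions obtained by merging the peak lists of 4 Jurkat libraries on chromosomes 1 to 22, X and Y, 291 (0.715%, 95% Wilson interval 0.638 to 0.802) had their mid-point inside the coding sequence (CDS) of a protein-coding gene and more than 2 kb from every annotated transcription start site (TSS). These 291 coding-exon regions are described here. A further 634 regions had their mid-point in CDS but lay within 2 kb of a TSS and were not taken. Coordinates refer to the build hg19 (GRCh37), and the annotation was GENCODE release 44 lifted to it. The members were chosen by position alone, so the presence of a peak and its height were free to vary among them.

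Coding exons carry the protein code, and in human genes they are short islands between long introns. Accessible chromatin lies mostly at promoters and at enhancers in introns and between genes, where transcription factors displace nucleosomes. A transcription factor can also bind inside a coding exon, in which case the same bases serve as codons and as a binding site.

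Jurkat is a line of human T leukaemia cells, and all libraries came from this line. The labels name the 4 lists NS DMSO, SW DMSO, NS rottlerin and SW rottlerin. NS stands for non-stimulated cells and SW for cells from which a stimulus was withdrawn, which by the labels was 4 h of PMA with ionomycin followed by 1 day of rest. DMSO is the vehicle and rottlerin, a kinase inhibitor, was given at 15 µM for 1 h before. Each label has 1 library, so the error between replicates of a list is unknown and no p-value is printed. By the labels, the other 5 samples of the series were not analysed here. Labels and methods of the study disagree on the lists: the methods describe peak calling in the vehicle-treated cells of each state, without the rottlerin samples, and the total of merged regions they give is the total obtained here from all contigs. They also give a shorter stimulation. The lists are therefore called by their labels, and no direction is drawn for stimulation or for rottlerin.

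The 4 lists held 18977 (NS DMSO), 20132 (SW DMSO), 23835 (NS rottlerin) and 30409 (SW rottlerin) peaks, with median fold enrichments of 4.03 to 4.08 over input. The lists do not show read depth, and an absent peak means that none was called in that library. Fewer cells with an open region and less opening per cell cannot be told apart. A region lay within 1 kb of a TSS for 5 of 8 T cell marker genes (CD3D, CD3E, CD3G, LCK and BCL11B, but not CD2, CD7 or PTCRA), for PAX5 of 3 B cell markers, for KRT8 of 3 epithelial markers and for none of 3 myeloid or 3 erythroid markers.

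Examples show how these regions sit on their exons. In the sequences printed here, from the GRCh37 reference on the coding strand, capitals mark coding bases and lower case marks intron. SPTAN1, which encodes the non-erythroid alpha chain of the cytoskeletal protein spectrin, had a peak in all 4 lists. ENPP3, an ectoenzyme of nucleotide breakdown, had one in every list but NS DMSO. PDK3, a kinase that restrains pyruvate dehydrogenase, had one in the NS rottlerin list alone. ELF1, an ETS-family transcription factor of lymphocytes, had one in the NS DMSO list alone. The SPTAN1 and ENPP3 windows are the central 300 bases of wider regions and hold a whole exon each, of 93 and 136 bases, between the ag that ends an intron and the gt that begins the next. The PDK3 region of 217 bases runs out of an exon into the intron after it, and the ELF1 region of 168 bases is coding throughout.
SPTAN1 (chr9:131349772-131350071, plus strand): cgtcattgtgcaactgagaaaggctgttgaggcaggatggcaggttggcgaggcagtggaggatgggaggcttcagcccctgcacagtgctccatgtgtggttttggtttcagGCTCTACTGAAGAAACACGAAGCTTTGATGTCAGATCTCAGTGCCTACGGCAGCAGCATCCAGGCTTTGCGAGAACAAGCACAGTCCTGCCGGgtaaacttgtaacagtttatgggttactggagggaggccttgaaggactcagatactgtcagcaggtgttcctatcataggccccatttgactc
ENPP3 (chr6:132054631-132054930, plus strand): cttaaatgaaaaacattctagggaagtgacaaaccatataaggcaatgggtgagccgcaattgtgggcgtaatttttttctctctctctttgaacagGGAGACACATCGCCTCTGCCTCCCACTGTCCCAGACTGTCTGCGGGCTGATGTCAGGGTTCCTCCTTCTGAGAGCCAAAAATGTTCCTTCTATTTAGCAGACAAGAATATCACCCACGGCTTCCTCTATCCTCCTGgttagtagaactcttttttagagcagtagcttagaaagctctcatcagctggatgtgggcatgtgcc
PDK3 (chrX:24512887-24513103, plus strand): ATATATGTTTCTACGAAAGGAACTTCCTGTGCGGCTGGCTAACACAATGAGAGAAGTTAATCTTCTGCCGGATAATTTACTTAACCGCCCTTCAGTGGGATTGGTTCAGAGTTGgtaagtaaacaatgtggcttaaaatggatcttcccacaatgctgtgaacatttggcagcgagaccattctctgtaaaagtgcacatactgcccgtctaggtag
ELF1 (chr13:41507700-41507867, minus strand): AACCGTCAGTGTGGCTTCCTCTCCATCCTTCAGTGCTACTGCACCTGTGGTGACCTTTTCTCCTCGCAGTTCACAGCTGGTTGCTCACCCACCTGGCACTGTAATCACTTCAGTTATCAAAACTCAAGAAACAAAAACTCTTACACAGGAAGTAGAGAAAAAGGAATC

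Short sites at the regions are shown next, because the results on motifs turn on them. They were sought in the 300 bases around each mid-point. The first set holds TGANTCA, a pattern that includes the site of AP1 factors such as FOS and JUN, in capitals with 17 bases on each side. N stands for any base, so forms such as TGATTCA in N4BP2 were counted as well. The set shows some of the 42 members that had such a site and no peak in the NS DMSO list. The site lay in coding sequence in MAML1, SPATS2 and N4BP2 and in the adjoining intron in BMERB1, PDK3, TBPL2 and CRYBG1. In PDK3 it lay just past the end of the region, and in the others within it.
BMERB1 (chr16:15684835-15684875, plus strand): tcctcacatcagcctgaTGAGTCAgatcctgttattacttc
PDK3 (chrX:24513090-24513130, plus strand): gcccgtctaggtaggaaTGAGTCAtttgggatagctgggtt
MAML1 (chr5:179192609-179192649, plus strand): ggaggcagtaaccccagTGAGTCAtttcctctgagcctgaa
TBPL2 (chr14:55890832-55890872, plus strand): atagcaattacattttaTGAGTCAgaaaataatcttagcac
SPATS2 (chr12:49912887-49912927, plus strand): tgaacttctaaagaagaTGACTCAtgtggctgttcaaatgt
CRYBG1 (chr6:107009406-107009446, plus strand): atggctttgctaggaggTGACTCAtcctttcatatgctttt
N4BP2 (chr4:40124784-40124824, plus strand): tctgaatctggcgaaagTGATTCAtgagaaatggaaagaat

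The second set shows TGTGGT, the core of RUNX sites, in capitals for some of the 21 members that had such a site and a peak in the NS DMSO list alone. The site was coding in MARCHF11, PDZD8, UGT3A1 and ELF1 and intronic in ANKH. Strands are those on which the site reads TGTGGT.
MARCHF11 (chr5:16067736-16067775, minus strand): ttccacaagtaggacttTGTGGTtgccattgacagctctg
PDZD8 (chr10:119044440-119044479, plus strand): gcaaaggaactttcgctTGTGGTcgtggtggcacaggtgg
UGT3A1 (chr5:35954475-35954514, plus strand): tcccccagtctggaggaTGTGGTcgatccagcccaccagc
ANKH (chr5:14742028-14742067, minus strand): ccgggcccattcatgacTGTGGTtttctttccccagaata
ELF1 (chr13:41507800-41507839, minus strand): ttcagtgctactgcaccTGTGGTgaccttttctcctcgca

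The third set gives the CTCF matches of 2 named members, with the match in capitals. CTCF is the zinc-finger protein that binds insulators and anchors chromatin loops. The DHRS12 match ran from an intron into the start of a coding exon and was counted as non-coding. The DLL3 match lay in coding sequence.
DHRS12 (chr13:52372023-52372068, minus strand): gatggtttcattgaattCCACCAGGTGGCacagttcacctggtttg
DLL3 (chr19:39993614-39993659, minus strand): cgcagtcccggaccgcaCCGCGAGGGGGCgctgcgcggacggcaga

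The 291 regions fell in 283 genes, of which 8 held 2 each and none held 3. CDS of a consensus (CCDS) transcript held the mid-point in 276 of them. The exon at the mid-point had a median length of 165 bp (quartiles 111 and 309, range 33 to 10489), and the regions had a median width of 272 bp (161 to 1673). Regions were wider than their coding exon in 205 cases and covered the whole of it in 164, while 47 lay wholly inside it. The coding share of a region therefore ranged widely, from 5.48% in ZNF774 to 100%, with a median of 54.8%. In 118 members it was under 50%, in 126 it was 50% or more but not complete, and 47 members were coding throughout. Low coding shares came with short exons, such as 50 bp in ZNF774, 56 bp in KCNA3, a potassium channel of T cells, and 80 bp in PRUNE2. The KCNA3 exon was not part of a CCDS transcript.

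**Figure D1:**
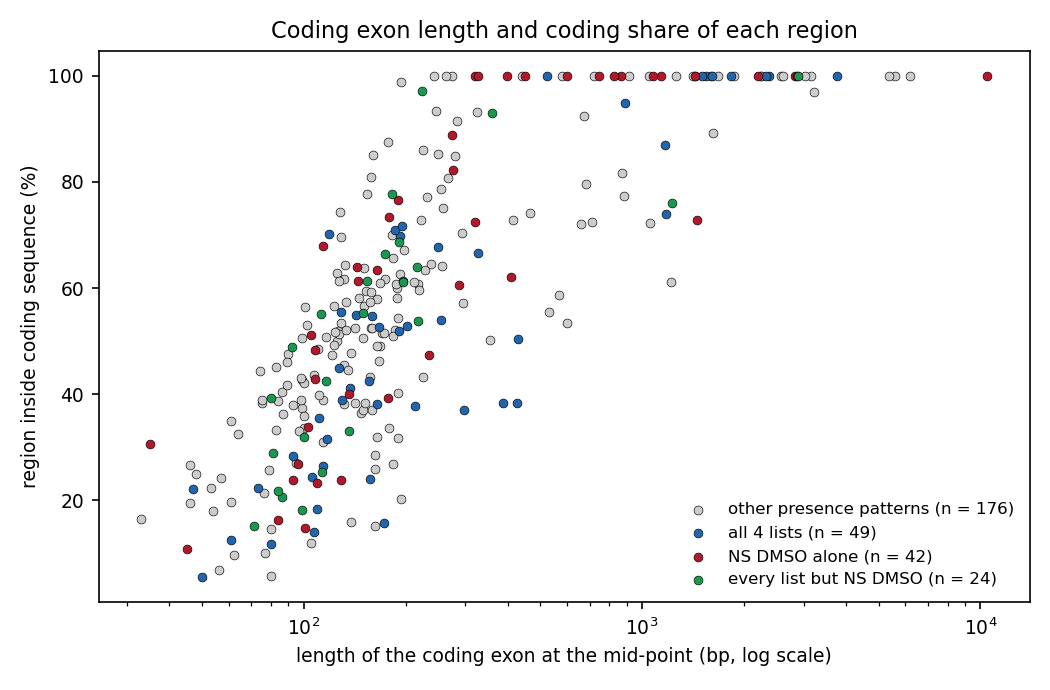
Length of the coding exon at the mid-point (x axis, bp, log scale) against the share of the region inside coding sequence (y axis, %), with 1 point for each of the 291 coding-exon regions and colours for presence in the lists. The 47 regions at 100% form the line along the top, and 15 of the 42 regions of the NS DMSO list alone (red) are among them.

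Internal coding exons held 216 members (74.2%, 68.9 to 78.9), last coding exons 59 (20.3%), first coding exons 8 (2.75%) and single coding exons 8 (2.75%). For comparison, 300-base windows were centred on every 1000th coding base that lay more than 2 kb from a TSS, 18440 in all. Of these, 70.5% were internal, 22.4% last, 3.24% first and 3.88% single. Exons of at least 300 bp held 25.1% of the members (20.5 to 30.4) and 32.4% of the windows. Exons of at least 1000 bp held 13.4% (9.96 to 17.8) and 17.6%. The members thus sat on shorter exons than the windows did, with medians of 165 and 184 bp. The longest was exon 2 of 13 in CMYA5, a muscle protein, with 10489 bp and a peak of 3.90-fold in the NS DMSO list alone. The most distant from any TSS was in exon 14 of 30 of ADGRB3, an adhesion receptor of the brain, at 152 kb, with 3.38-fold in the NS DMSO list alone. A median of 7.08 kb separated mid-points from the nearest TSS, and in 105 members that TSS belonged to another gene.

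At the limit of 2 kb, the nearest members were TRIM55 (2008 bp), TCHHL1 (2023 bp) and SMCO2 (2059 bp). They had peaks in 1, 1 and 2 lists and highest fold enrichments of 4.13, 2.86 and 2.76. The coding regions just outside the limit were MACF1 (1994 bp), WASHC3 (1993 bp) and ANK2 (1977 bp), each with a peak in all 4 lists and highest values of 5.27, 7.86 and 7.05. These few examples do not measure a change at 2 kb. With the limit at 1 kb, 17.6% of 347 members were in all 4 lists, against 16.8% of the 291.

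Coding sequence was not sparse in regions for its size, counting every known base whether or not reads can map to it. Median distances to the nearest TSS were 7075 bp for members, 10146 bp for intron regions and 15018 bp for intergenic regions. The densities were not adjusted for mapping or for this distance. More than 2 kb from every TSS, 18.4 Mb of coding sequence held 15.8 regions per Mb, against 15.5 in other exonic sequence (58.5 Mb), 13.2 in introns of protein-coding genes (1000 Mb), 7.26 in non-coding genes and 7.62 between genes (1018 Mb). By list, coding sequence held 7.27, 6.51, 7.22 and 10.7 regions per Mb in NS DMSO, SW DMSO, NS rottlerin and SW rottlerin, and introns held 5.06, 5.37, 6.70 and 9.05. Density in coding sequence was thus nearly the same in the NS DMSO and NS rottlerin lists (7.27 and 7.22), although these lists held 18977 and 23835 peaks.

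Presence in the lists was compared with all merged regions and with the regions in introns (13198) and between genes (7760), also more than 2 kb from a TSS. A peak in the NS DMSO list was found in 134 members (46.0%, 40.4 to 51.8), against 46.5% of all regions, 38.4% in introns and 37.8% between genes. For SW DMSO it was 120 members (41.2%, 35.7 to 47.0) against 49.3%, 40.7% and 40.4%. For NS rottlerin it was 133 members (45.7%, 40.1 to 51.4) against 58.4%, 50.7% and 50.1%. For SW rottlerin it was 198 members (68.0%, 62.5 to 73.1) against 74.5%, 68.6% and 67.8%. The longest list thus held the most members, but the other 3 did not follow list length. The interval of the members lay above the share of introns in the NS DMSO list and contained it in the others.

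**Figure D2:**
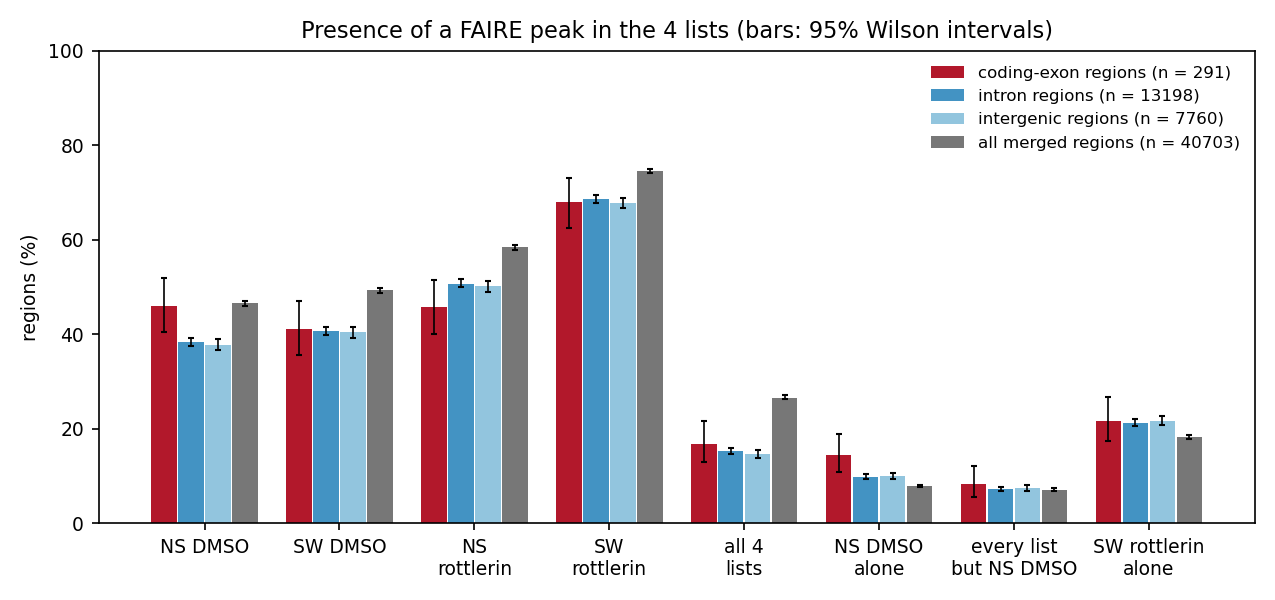
Share of regions (y axis, %) with a peak in each list, in all 4 lists, in the NS DMSO list alone, in every list but NS DMSO and in the SW rottlerin list alone, for coding-exon regions, intron regions, intergenic regions and all merged regions, with 95% Wilson intervals. Coding-exon regions stand at 14.4% for the NS DMSO list alone, against 9.87% of intron and 7.83% of all regions.

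A single list held 137 members (47.1%), 2 lists held 63 (21.6%), 3 lists held 42 (14.4%) and all 4 held 49 (16.8%, 13.0 to 21.6). Of all regions 26.6% were in all 4 lists, and of intron regions 15.2%. No NS DMSO peak was found in 157 members (54.0%, 48.2 to 59.6), against 53.5% of all regions and 61.6% in introns. The NS DMSO list alone held 42 members (14.4%, 10.9 to 18.9), against 7.83% of all regions, 9.87% in introns and 10.0% between genes. Every list but NS DMSO held 24 (8.25%, 5.60 to 12.0) against 7.08% of all regions. SW rottlerin alone held 63 (21.6%, 17.3 to 26.7) against 18.2%, NS rottlerin alone 20 (6.87%, 4.49 to 10.4) against 8.42%, and SW DMSO alone 12 (4.12%, 2.37 to 7.07) against 4.32%. These shares cover counting error only, and neighbouring regions of a gene are not independent.

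List length was then made equal by taking from each list its 18977 highest-scoring peaks, the number in the shortest list. All regions then had a peak in 58.4% to 58.5% of cases in every list. Of the 221 coding-exon regions left, 134 (60.6%, 54.1 to 66.8) had a NS DMSO peak, 112 (50.7%, 44.1 to 57.2) a SW DMSO peak, 100 (45.2%, 38.8 to 51.8) a NS rottlerin peak and 95 (43.0%, 36.6 to 49.6) a SW rottlerin peak. At this length the SW rottlerin list, the first by number of members as deposited, came last. The cut took nothing from the NS DMSO list and only the lowest-scoring peaks from the others. Members had a median highest score of 42.0, against 54.0 in all regions. List length and the loss of low-scoring peaks cannot be told apart here. With the higher-scoring 50% of each list, SW rottlerin held 61.3% of members and was first again. NS DMSO then held 48.1%, against 47.9% of all regions. Intron regions ran from 48.3% to 51.2% over the 4 lists and other exonic regions from 48.1% to 53.1%. The NS DMSO list alone held 25.8% of the coding-exon regions (20.5 to 31.9), 17.2% of intron, 17.6% of intergenic and 13.3% of all regions.

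The score (the −log10 q-value times 10, cut to a whole number) differed between presence groups. The median highest score of members was 21.0 for the NS DMSO list alone, 28.0 for SW rottlerin alone and 108 for all 4 lists, against 32.0, 31.0 and 119 in all regions. Among members with a score under 30, the NS DMSO list alone held 25 of 85 (29.4%, 20.8 to 39.8), against 18.2% of intron and 17.8% of intergenic regions of that score. From 30 to under 60 it held 15 of 110 (13.6%, 8.44 to 21.3) against 10.3% and 11.1%. From 60 upwards it held 2 of 96 (2.08%, 0.573 to 7.28) against 3.12% and 3.13%. The higher share of the NS DMSO list alone thus lay among peaks of low score. All 4 lists held 45 of the 96 members with a score of 60 or more (46.9%, 37.2 to 56.8), against 38.1% in introns and 54.9% of all regions.

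**Figure D3:**
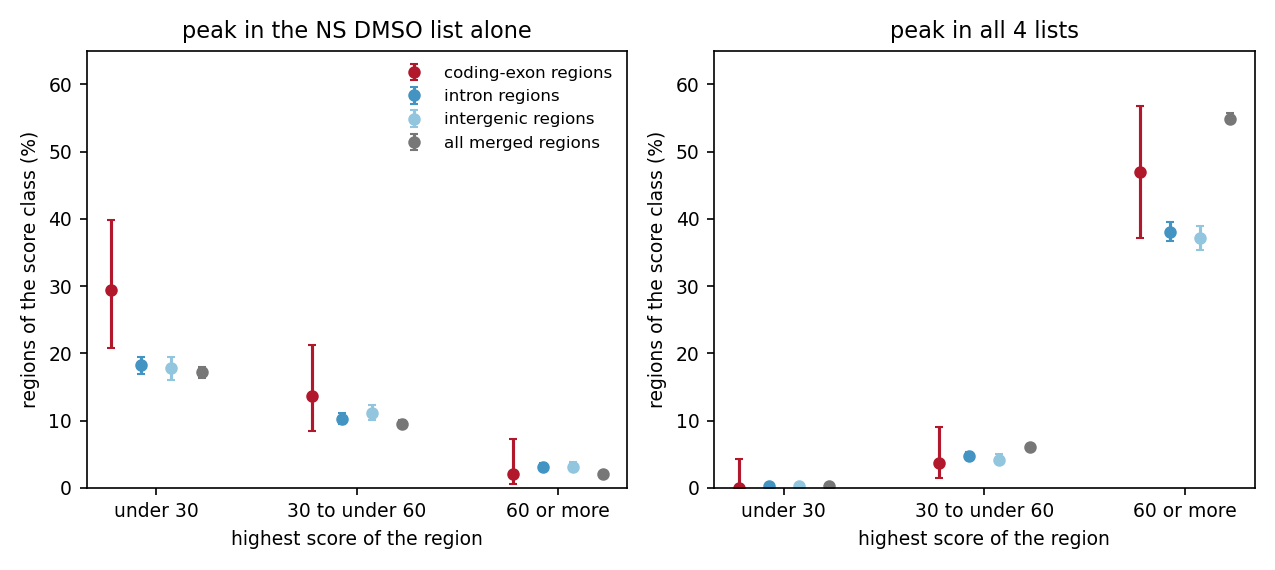
Share of regions (y axis, %) with a peak in the NS DMSO list alone (left) and in all 4 lists (right) by the highest score of the region (x axis), with 95% Wilson intervals. In the lowest class the coding-exon regions stand at 29.4% on the left, above the other groups at 17.2% to 18.2%, and in the highest class all groups on the left lie between 2.04% and 3.13%.

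Members of the NS DMSO list alone also sat differently on their exons from members without an NS DMSO peak. They were coding throughout in 15 of 42 cases (35.7%, 23.0 to 50.8), against 8 of 49 in all 4 lists (16.3%, 8.51 to 29.0) and 17 of the 157 without an NS DMSO peak (10.8%, 6.87 to 16.7). Exons of at least 300 bp held 42.9% of them (29.1 to 57.8) and 30.6% (19.5 to 44.5) of those in all 4 lists. Such exons held 16.6% (11.6 to 23.2) of those without an NS DMSO peak. The median exons of these groups were 254, 186 and 158 bp. In SW rottlerin alone, 15.9% (8.86 to 26.8) were coding throughout and 19.0% (11.2 to 30.4) lay on such exons. In both measures the interval of the NS DMSO list alone overlapped those of all 4 lists and of SW rottlerin alone. Read the other way, 31.9% (20.4 to 46.2) of the 47 members that were coding throughout were in the NS DMSO list alone, against 10.3% and 11.9% of the members that were mostly or less than 50% coding.

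Fold enrichment over input is column 7 of each list, and a region with several peaks of a list takes the highest. Its median over the members was 3.89 in NS DMSO (134 members, 2.19 to 7.90), 3.93 in SW DMSO (120, 2.75 to 7.75), 3.98 in NS rottlerin (133, 2.74 to 8.74) and 3.88 in SW rottlerin (198, 2.56 to 9.72). Over all regions the medians were 4.06, 4.03, 4.09 and 4.03, and over intron regions 3.92, 3.91, 3.98 and 3.92. Among called peaks, height therefore differed little between lists or from introns. Each median covers only the members with a peak in that list, so it cannot show how enrichment differed where no peak was called. Members in all 4 lists had a median highest value of 5.30 against 5.21 for all regions in all 4 lists.

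**Figure D4:**
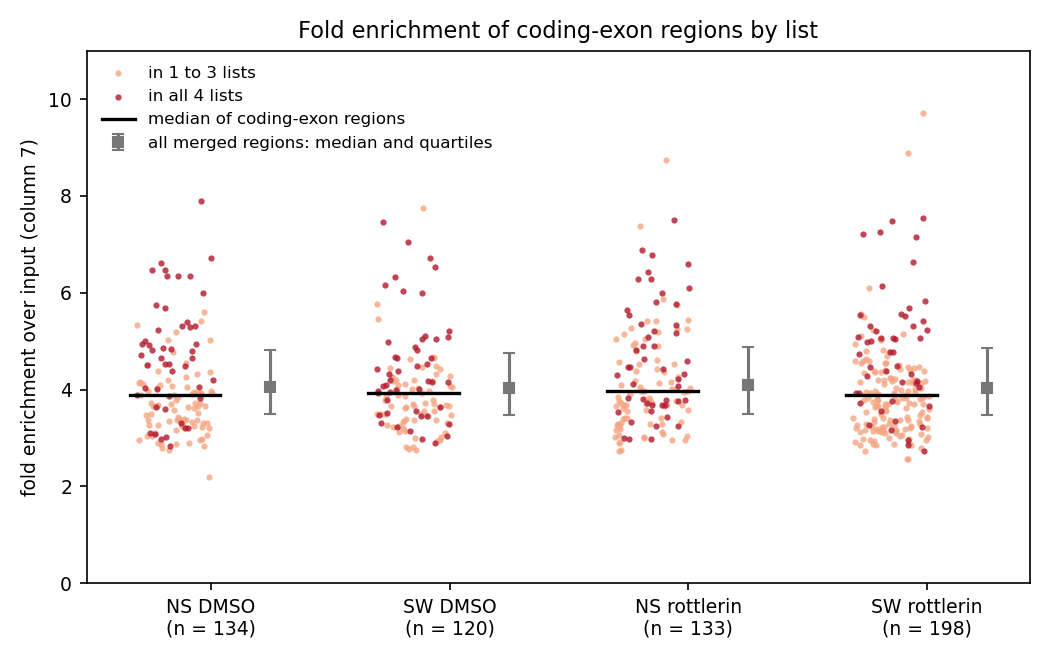
Fold enrichment over input (y axis) of every coding-exon region with a peak in each list, with the median as a black line, and the median and quartiles of all merged regions as grey squares. Medians lie between 3.88 and 3.98 for coding-exon regions and between 4.03 and 4.09 for all regions, and the highest points belong to BMERB1 at 9.72 and ENPP3 at 8.89 in the SW rottlerin list.

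Where a member had a peak in NS DMSO and in another list, its fold enrichments were set side by side. The 3 comparisons share the NS DMSO values. In SW DMSO the median ratio was 0.952 over 65 members, with 1 at least 1.5-fold higher (1.54%, against 1.67% of all shared regions) and 3 at least 1.5-fold lower (4.62%, against 2.18%). In NS rottlerin it was 0.993 over 68 members, with 4 higher (5.88% against 3.19%) and 2 lower (2.94% against 1.38%). In SW rottlerin it was 1.03 over 75 members, with 4 higher (5.33% against 4.50%) and 2 lower (2.67% against 1.54%). The members' intervals contained the share of all regions in each case, and at such numbers a share a few times larger could not be told from it. No member differed 2-fold, a ratio at which all shared regions were not counted.

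Of the members in all 4 lists, 6 had the highest values. DEPDC1B, a protein of dividing cells, had 7.90-fold in NS DMSO, 6.03 in SW DMSO, 5.81 in NS rottlerin and 6.13 in SW rottlerin, at its last coding exon (chr5:59893464-59893753). SPTAN1 had 6.72, 7.05, 6.29 and 7.54 in the same order, at exon 19 of 57 (chr9:131349758-131350086). DEPDC1B thus stood highest in NS DMSO, and the SPTAN1 values lay close together. NFRKB, a subunit of the INO80 chromatin remodelling complex, had 5.00, 3.96, 7.51 and 7.49 at exon 2 of 25 (chr11:129758294-129758730), so it stood higher in both lists labelled rottlerin. ATP6V0A4, a subunit of a proton pump, had 6.48, 7.47, 6.89 and 6.63. TRIM37, a ubiquitin ligase, had 4.86, 6.72, 6.77 and 7.26, the lowest in NS DMSO. MYO3B, a myosin, had 6.34, 5.09, 6.42 and 7.22 with 14.0% of a wide region coding.

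The highest value of all members was at BMERB1 (chr16:15684703-15685171), which had no NS DMSO peak and 7.75-fold in SW DMSO, 8.74 in NS rottlerin and 9.72 in SW rottlerin. Its coding exon of 71 bp made up 15.1% of the region. Among the 24 members in every list but NS DMSO, ENPP3 had 5.45, 3.97 and 8.89 (chr6:132054575-132054986), the widest range of the named ones. HIF1A, the oxygen-regulated subunit of the hypoxia factor, had 4.45, 5.88 and 4.81 at exon 2 of 15 (chr14:62187024-62187306). ACTN2, a muscle actinin, had 4.19, 5.75 and 4.19, and LAMA3, a laminin chain, had 3.25, 5.43 and 4.80. CRTAP, a protein of collagen modification, had 4.27, 5.42 and 3.75. HIF1A, ACTN2, LAMA3 and CRTAP were highest in the NS rottlerin list.

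Members found in a single list had lower values, with median highest folds of 3.42 to 3.54 against 5.30 in all 4 lists. The same held for all regions, with 3.53 to 3.57 against 5.21. In the NS DMSO list alone the highest were MARCHF11, a ubiquitin ligase, with 5.33, PDZD8, a protein of the endoplasmic reticulum, with 5.03, UGT3A1, a glycosyltransferase, with 4.55, and ANKH, a membrane protein of pyrophosphate export, with 4.39. MARCHF11 and PDZD8 were coding throughout, and UGT3A1 was coding over 88.8% of its width. In SW DMSO alone the highest were MTREX (4.20), a helicase of the nuclear exosome, and DHRS12 (4.17). In NS rottlerin alone they were PDK3 (5.26), BNC1 (4.53), a zinc-finger factor, and MAML1 (4.13), a coactivator of Notch. In SW rottlerin alone they were TBPL2 (5.56), a relative of the TATA-binding protein, SPATS2 (5.23) and CRYBG1 (5.02).

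Among the 49 members in all 4 lists, the mean log2 ratio of the other lists to NS DMSO was largest at CHD7, a chromatin remodeller, at 0.83, from 2.98 in NS DMSO to 5.10, 5.76 and 5.05 in the others. R3HDM2 followed at 0.66 (3.02 against 4.52, 4.33 and 5.54), then DMXL2 at 0.60 (2.83 against 4.15, 3.82 and 4.98) and TRIM37 at 0.51. The smallest were RAB11A, a GTPase of recycling endosomes, at -0.69 (5.99 against 3.51, 3.56 and 4.13), ZNF438 at -0.59 (5.30 against 3.30, 4.12 and 3.23), TTC39C at -0.42 (6.35 against 4.65, 4.30 and 5.31) and ZNF451 at -0.41. In CHD7, R3HDM2, DMXL2, TRIM37, RAB11A, ZNF438 and TTC39C the NS DMSO value lay outside the range of the other 3. In ZNF451 it was 5.68, against 4.00, 3.44 and 5.68.

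The 8 genes with 2 members were CHAT, CRYBG1, DLL3, DMXL2, LAMP3, N4BP2, NFRKB and PRG4. In CHAT, which makes acetylcholine, exon 10 had a peak in all 4 lists (3.10, 3.29, 3.68 and 2.85) and exon 9 in SW rottlerin alone (3.20). In N4BP2, exon 7 had nearly equal values in all 4 lists (4.39, 4.43, 4.46 and 4.39) and exon 8 a SW rottlerin peak of 4.03. CRYBG1 and DMXL2 likewise paired a region in all 4 lists with one in SW rottlerin alone. CRYBG1 exon 4 had 4.04, 4.39, 4.08 and 4.78, and DMXL2 exon 18 had 3.10 in SW rottlerin. Both DLL3 regions, in a Notch ligand, were in SW rottlerin alone (3.44 and 3.14), lay in GC-rich exons (77.7% and 78.0%) and were coding throughout. LAMP3, a lysosomal protein of dendritic cells, and PRG4, the joint lubricant lubricin, had NS DMSO peaks at both of their regions, with 2.98 and 3.31 in LAMP3 and 2.95 and 3.94 in PRG4. The other NFRKB region, at exon 23, had 3.26 in SW DMSO and 3.89 in SW rottlerin.

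Genes of T cell function held members about as often as genes at large, within wide intervals. Of 15918 protein-coding genes with coding bases more than 2 kb from every TSS, 283 held a member (1.78%, 1.58 to 2.00). Of 72 genes of T cell receptor signalling and costimulation 2 did (2.78%, 0.765 to 9.57), of 48 activation-induced genes 2 (4.17%, 1.15 to 14.0) and of 51 leukaemia and T-lineage transcription factors 2 (3.92%, 1.08 to 13.2). The intervals all contain the share of all genes. IRF4, a factor induced by antigen receptor signalling, had no NS DMSO peak and 2.94, 2.74 and 4.55 in SW DMSO, NS rottlerin and SW rottlerin (chr6:404896-405340, exon 7 of 8). PRDM8 had 3.79 in SW rottlerin alone. ITPR2 and ITPR3, the receptors that release calcium from the endoplasmic reticulum, had peaks in 2 lists each, with 3.57 in NS rottlerin and 3.71 in SW rottlerin for ITPR2, and 3.68 in NS DMSO and 2.88 in SW rottlerin for ITPR3. ELF1 had 3.32 in NS DMSO alone and RUNX2 3.20 in SW rottlerin alone.

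C2H2 zinc-finger genes, whose finger arrays are often coded by a long last exon, held 15 members in 15 of 544 genes (2.76%, 1.68 to 4.50). Of these, ZBTB10, ZNF438, ZNF451, ZNF774 and ZNF79 were in all 4 lists and ZNF44, ZNF619 and ZSCAN25 in NS DMSO alone. ZBTB10 had the highest value among them, with 6.61, 5.99, 6.10 and 5.07 in NS DMSO, SW DMSO, NS rottlerin and SW rottlerin. Chromatin regulators held 4 in 71 genes (5.63%, 2.21 to 13.6), against 1.78% of all genes. These gene shares take no account of coding length, and a longer gene offers more sequence for a member. Of the 4, CHD7 was in all 4 lists. HDAC9 (3.78), INO80 (4.03) and KMT2E (4.11) were in SW rottlerin alone, which held 21.6% of all members. Homeobox genes held 1 in 76 (LHX9) and keratins 1 in 45 (KRT84). No member lay in 46 clustered protocadherins, 43 collagens or 120 olfactory receptors, for which the upper Wilson limits are 7.71%, 8.20% and 3.10%.

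Base composition was close to that of the coding windows. It was taken over the 300 bases around each mid-point, a window that reached past the region in 175 members (60.1%) and in 51.3% of all regions. The members' windows had a median GC content of 44.7% and 4.00 CpG, with a median observed to expected CpG ratio of 0.287, against 46.0%, 4.00 and 0.289 in the coding windows. CpG-island-like windows, with GC over 50% and an observed to expected ratio over 0.6, made up 21 members (7.22%, 4.77 to 10.8). They were 5.56% of the coding windows, 1.33% of intron, 3.76% of intergenic and 21.0% of all regions. The 21 members included the glutamate receptor genes GRIN2C, GRIN2D and GRIK4, and UNC13A, a gene of synaptic vesicle release. AGRN, CHD5, TMEM275, CAMKK2, ATP8A2 and NXPH4 were also among them, and whether they share a function was not tested. Of these 21, SW rottlerin alone held 8, where it held 21.6% of all members and 18.2% of all regions. Its share among CpG-island-like regions at large was not taken, so the count is not read as a trait of members. UNC13A (3.08, 4.32, 3.77 and 4.74) and PRR7 (4.66, 4.08, 3.72 and 3.76) were in all 4 lists. The highest GC content, 79.3%, was in KBTBD11.

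Motifs were sought on both strands of these 300-base windows, as runs of letters for 8 factor families and 3 E-boxes and as a CTCF consensus. A CTCF match can contain a CACCTG match. A match is a run of letters and not a shown binding site. AP1 matches (TGANTCA) were found in 56 members (19.2%, 15.1 to 24.2), as in intron (21.4%) and all regions (17.9%), and in 7.76% of the coding windows. RUNX matches (TGTGGT) were in 117 (40.2%, 34.7 to 45.9), as in introns (41.0%), against 32.8% of all regions and 18.6% of coding windows. CTCF matches were in 19 (6.53%, 4.22 to 9.97), against 4.69% of intron regions, 5.75% of all regions and 1.56% of coding windows. For these 3 the members stood with the other distal accessible regions and above coding sequence at large. Counting only matches inside the region itself, AP1 was in 49 members (16.8%, 13.0 to 21.6) against 16.7% of all regions (2635 of 13198 in introns), RUNX in 112 (38.5%, 33.1 to 44.2) against 38.7% in introns and 30.9% of all, and CTCF in 17 (5.84%, 3.68 to 9.16) against 4.50% and 5.57%.

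ETS matches (CCGGAA) were in 29 members (9.97%, 7.03 to 13.9), above the coding windows (5.79%) and introns (4.12%) and near all regions (10.5%). Inside the region itself they were in 24 (8.25%, 5.60 to 12.0), an interval that contains the share of the longer coding windows but not that of introns (3.79%). GATA matches (AGATAA) were in 63 (21.6%, 17.3 to 26.7), between the coding windows (15.1%) and introns (26.8%). The E-box CATCTG was in 93 members (32.0%, 26.9 to 37.5), above coding windows (24.1%), introns (24.8%) and all regions (21.4%). The E-box CACCTG (28.9%, 24.0 to 34.3) was about as frequent as in coding windows (27.6%), with 21.4% of all regions. The E-box CAGCTG (19.9%, 15.7 to 24.9) was too (19.3%), with 17.1% of all regions. NFAT matches (TGGAAA, 30.9%, 25.9 to 36.5) were near the coding windows (28.9%) and introns (31.4%), with 27.9% of all regions. SP/KLF matches (GGGCGGG) were in 20 (6.87%, 4.49 to 10.4), against 3.67% of coding windows and 15.5% of all regions. NFKB matches (GGGANTTCC) were in 4 members (1.37%), 2 of them inside the region, and 1.41% of all regions, and EGR matches (GCGTGGGCG) in none of 291 (upper Wilson limit 1.30%) and 0.418% of all regions.

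**Figure D5:**
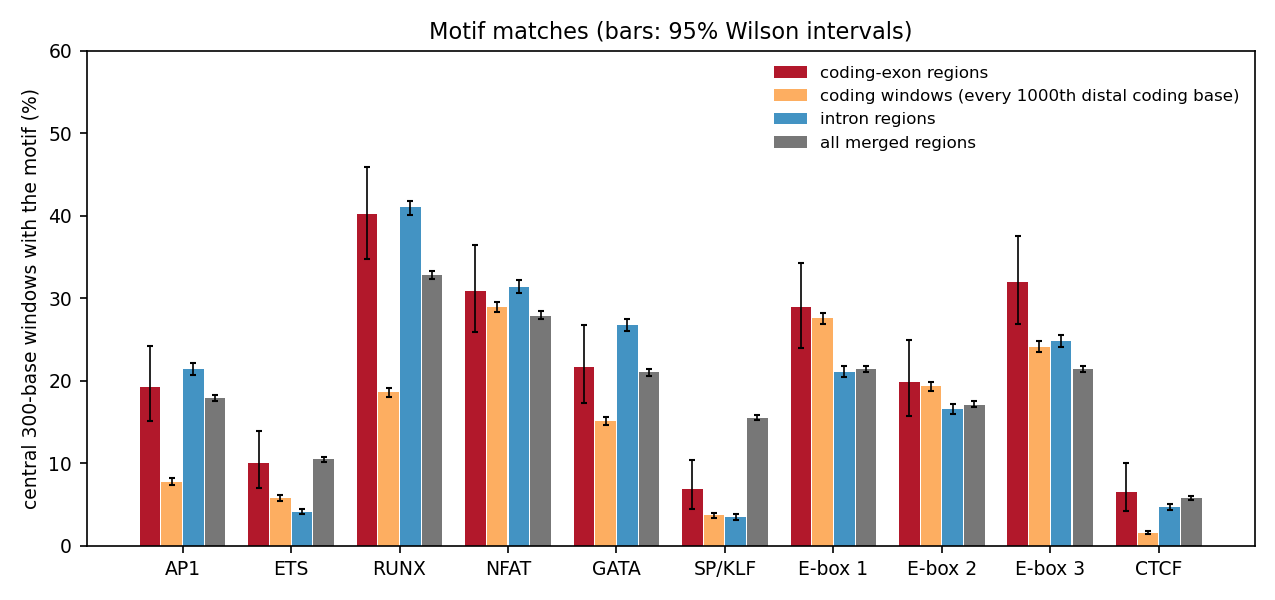
Share of 300-base windows around the mid-point with a motif match (y axis, %) for coding-exon regions, coding windows, intron regions and all merged regions, with 95% Wilson intervals (E-box 1 is CACCTG of the text, E-box 2 is CAGCTG of the text and E-box 3 is CATCTG). AP1, RUNX and CTCF stand at 19.2%, 40.2% and 6.53% in coding-exon regions and at 7.76%, 18.6% and 1.56% in coding windows.

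AP1 matches followed presence in the lists. They were in 3 of the 42 members of the NS DMSO list alone (7.14%, 2.46 to 19.0), 10 of the 49 in all 4 lists (20.4%, 11.5 to 33.6) and 9 of the 24 in every list but NS DMSO (37.5%, 21.2 to 57.3). In the same order all regions had 6.31%, 9.68% and 36.7%, and intron regions 5.68%, 18.2% and 42.6%. Of the 157 members without an NS DMSO peak 42 had one (26.8%, 20.4 to 34.2), against 25.8% of all such regions. Inside the region itself it was 2 of 42, 9 of 49, 9 of 24 and 37 of 157. The 41-base windows at BMERB1, PDK3, MAML1, TBPL2, SPATS2, CRYBG1 and N4BP2 printed above are of this kind. RUNX matches ran otherwise, with 21 of 42 in the NS DMSO list alone (50.0%, 35.5 to 64.5), 27 of 49 in all 4 lists (55.1%, 41.3 to 68.1) and 7 of 24 in every list but NS DMSO (29.2%, 14.9 to 49.2). All regions had 46.3%, 26.3% and 33.2%. Among regions in all 4 lists, the members' RUNX share was close to that of introns (51.6%).

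Matches were then placed on the exons. Coding bases made up 57.6% of all bases in the members' windows. Of 63 AP1 matches 30 were coding (47.6%, 35.8 to 59.7), of 135 RUNX matches 93 (68.9%, 60.6 to 76.1), of 32 ETS matches 29 (90.6%, 75.8 to 96.8) and of 19 CTCF matches 13 (68.4%, 46.0 to 84.6). The E-boxes were coding in 81 of 110 (CACCTG, 73.6%), 56 of 65 (CAGCTG, 86.2%) and 86 of 115 (CATCTG, 74.8%). SP/KLF matches were coding in 13 of 42 (31.0%, 19.1 to 46.0), NFAT in 64 of 111 (57.7%) and GATA in 46 of 76 (60.5%). AP1 matches thus lay about as often in the flanking non-coding bases as in coding sequence, and ETS and E-box matches mostly in coding sequence.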

How the data were processed

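FAIRE-seq was performed by the authors on Jurkat cells, with 1 library per label. According to the study's methods and the submitters' processing notes, reads were trimmed with cutadapt, mapped to hg19 with Bowtie2, freed of duplicates with Picard, and broad peaks were called with MACS2, total input serving as the control. Each deposited list holds a score, a fold enrichment (a ratio to input), and p- and q-values as −log10. All deposited peaks were used, and none ran past a GRCh37 chromosome end. Peaks that overlapped or touched were merged, giving 40731 regions, of which 28 on other contigs were left out. Members, gene lists and motifs were chosen with earlier results of these data known. Named genes were those with the highest fold enrichment in each presence group, the largest and smallest ratios to NS DMSO, 2 members, a place in the T cell lists, or a mid-point nearest the 2 kb limit. Of these, 1 is not reported here. Other genes named for an exon, distance, GC content or gene list were chosen after their values were seen. The host is the gene of a CCDS transcript with the longest CDS where there is one. Intervals are 95% Wilson intervals and cover counting error only. Depth is unknown from the lists. Steps were tested on simulated data. Python 3.11.15, pandas 2.3.3, scipy 1.17.1, pysam 0.24.0 and matplotlib 3.10.9 were used.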

Additional observations from a re-analysis of the deposited data

How the results depend on the processing

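Of 291 values under alternatives, 249 stayed within the 95% interval of the reported value, within 1.5 times it for counts, or within 10% for medians. The number of members and their share of all regions rest on the definition: 347 (0.853%) at more than 1 kb, 187 (0.459%) at more than 5 kb, 512 (1.26%) with the TSSs of gene records only, 177 (0.435%) with at least 50% of the region in CDS, 753 (1.85%) with any CDS overlap and 106 (0.536%) from the 50% of peaks with the higher scores. Leaving out a list gave 227 to 276 members. With gene records only, NS rottlerin peaks were in 52.5%, all 4 lists held 22.9%, and 17.2% were CpG-island-like, with SP/KLF at 12.1% and CATCTG at 26.4%. With any CDS overlap, NS rottlerin was 53.8%, ETS 6.24% and CATCTG 26.3%. With lists of equal length, where all regions stood at 58.4% to 58.5% in each list and 13.3% in the NS DMSO list alone, NS DMSO was 60.6%, SW DMSO 50.7%, SW rottlerin 43.0%, no NS DMSO peak 39.4%, the NS DMSO list alone 25.8% and NFAT 24.4%. With the higher-scoring 50%, NS rottlerin was 58.5% (60.2% of the 19782 regions then left), SW rottlerin 61.3% (76.8%), the NS DMSO list alone 10.4% (5.89 to 17.6, against 6.75% of all and 9.81% of intron regions), NFAT 24.5% (24.8%) and CAGCTG 25.5% (17.9%). In central 500-base windows, which hold more bases, RUNX was 49.1%, NFAT 41.9%, GATA 32.3%, CACCTG 36.4%, CAGCTG 26.5% and CATCTG 43.6%. Such windows were not taken for other regions, so these shares have no comparison. With a ratio of 5 to 4 as the limit, 36.9% (SW DMSO), 33.8% (NS rottlerin) and 29.3% (SW rottlerin) of shared members differed from NS DMSO, and at 2-fold 0 did in each. The share of all shared regions was not taken at either ratio, so whether members differ from them there is unknown. The cause of these shifts was not tested. Peaks with a q-value of 0.05 or less, autosomes only, touching peaks not joined, CDS of CCDS transcripts only, motif matches inside the region only, and ratios scaled to all shared regions moved no value past these limits. The CCDS and inside-region alternatives and all those for the NS DMSO list alone were chosen after seeing the data. Unknown depth limits any statement about absent peaks. No paired analysis was possible because each label has 1 library.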

Other observations

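Members made up between 0.261% (5 of 1915, chromosome 17) and 1.01% (22 of 2188, chromosome 12) of the regions of each chromosome from 1 to 20, and 0.906% of those on chromosome 1, which held the most members (38). The 95% Wilson interval of chromosome 17 (0.112 to 0.610) lay below the 0.715% of all chromosomes, and those of the other chromosomes contained it. The intervals were not adjusted for the number of chromosomes compared. Chromosome Y, with 18 regions, held none.

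CDS of more than 1 gene held the mid-point of 5 members, at PIK3R3, VPS33A, CNTNAP4, PTCD1 and TMEFF1, so their host is uncertain. A member on chromosome 3 lay in a gene named by an Ensembl number alone and had a SW rottlerin peak of 3.94-fold. The peaks with the widest regions were at CRYBG1, PRUNE2 and IQGAP1. At KCNA3, the main voltage-gated potassium channel of T cells, the region of a SW DMSO peak of 3.45-fold was coding over 6.95% of its width. That coding sequence was not of a CCDS transcript, so the region is no member when CCDS transcripts alone are used.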
